A study of Mus musculus with 6 samples.

Results

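The 40 genes described here encode the enzymes that build, transfer and trim the sugar chain of N-linked glycoproteins. They were chosen by name from knowledge of the pathway, with earlier results of these data known, and ordered by pathway step. All 40 were found among the 16472 genes of the authors' deposited table. Every one of the 40 had an adjusted p there, so none was lost to the low-count filter that left 13597 genes tested. By step, 6 members supply sugar nucleotides, 16 assemble the lipid-linked oligosaccharide, 9 belong to the oligosaccharyltransferase that transfers it, and 9 trim and mature the protein-bound chain.

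The cells were HT22, an immortalised line from mouse hippocampus, grown in serum-supplemented medium. They received either AA147, at a labelled dose of 10 mM, or DMSO as the vehicle, for 16 h, with 3 libraries in each group and 6 in all. The unit of that dose is in doubt, since it may be a slip for micromolar, and it could not be checked here. AA147 is a small molecule known to activate ATF6, a sensor of the unfolded protein response, and the oxidative stress regulator NRF2. The comparison asks how the transcripts of treated cells differ from those of vehicle-treated cells. Nothing in the labels says whether replicates came from separate cultures, so the p-values cover the spread between these libraries, which may be technical. Total RNA was sequenced as mRNA without strand information, and no value of a single library was analysed here.

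The table has 1 line per gene, made by the authors with both groups. It gives a mean normalized count over the 6 libraries, a log2 fold change with its standard error (SE), and a p adjusted by the Benjamini-Hochberg method over the tested genes. A gene is called when that adjusted p, from DESeq2's test, is under 0.05. The numerator of the fold change is not named. It is read here as AA147 over vehicle, because Nqo1, a classical NRF2 target, stood at 0.93 (SE 0.067, adjusted p 1.73e-40) per the authors' deposited table. Known targets of the regulators named for AA147 did not point 1 way. Of 8 NRF2 targets looked up, Nqo1 among them, 6 were called positive and 0 negative. The other 2 had negative signs and were not called, Slc7a11 at -0.40 (adjusted p 0.179) and Osgin1 at -0.21 (adjusted p 0.243) per the authors' deposited table. Of 11 ER stress genes looked up, 7 were called negative and 1 positive. Beside both sets, 9.05% of all tested genes were called positive and 11.1% negative. Hspa5, the ER chaperone BiP and a classical ATF6 target, stood at -0.80 (SE 0.061, adjusted p 9.89e-37), and Xbp1, itself induced by ATF6, at -1.21 (SE 0.065, adjusted p 1.03e-75) per the authors' deposited table. Pdia4, another ER folding gene, was the positive one at 0.35 (SE 0.060, adjusted p 1.24e-07) per the authors' deposited table. Both sets were chosen after their values were seen, and the reading rests on the NRF2 targets alone. Every direction below depends on it. With the opposite reading all signs would turn.

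The neuronal label was checked on 11 neuronal markers. The authors' deposited table held 3 of them, with means from 6.24 for Stmn2 to 1199 for Tubb3. The others, among them Rbfox3, Map2 and Snap25, were looked up and not found there. Tubb3 was called positive at 0.43 (adjusted p 5.67e-05) per the authors' deposited table, and the other 2 were not called. Of 8 fibroblast markers, 7 were present, with means from 181 for Dcn to 254004 for Col1a2 in the authors' deposited table. Of these 7, 6 were called negative, with a median log2 fold change of -0.97. Over all tested genes 11.1% were called negative and 9.05% positive. For tested genes with a mean of at least 1000 the shares were 15.6% and 12.8%. Of 16 markers of astrocytes, oligodendrocytes, microglia and endothelium, 8 were present, with means from 2.00 for Mbp to 927 for Slc1a3 in the authors' deposited table. Of the 5 of these that were tested, 1 was called positive and 2 negative, and the direction differed between them. Slc1a3, an astrocyte marker, stood at -1.30 (adjusted p 2.39e-45), and the microglial markers Csf1r and Tmem119 at 0.95 (adjusted p 0.0278) and -0.49 (adjusted p 0.000214) per the authors' deposited table. The part of these cell type markers in the results on glycosylation genes was not tested.

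N-linked glycosylation begins on the membrane of the endoplasmic reticulum (ER). Activated sugars are added one after another to the lipid dolichol, first on the cytosolic face and then, after flipping, on the lumenal face. The oligosaccharyltransferase moves the finished glycan as a block onto asparagine residues of proteins entering the ER. Glucosidases and mannosidases then trim it, which the calnexin and calreticulin chaperones read as a folding signal, and Golgi enzymes rebuild it into complex chains. The pathway belongs to the protein-folding capacity of the ER and is a known target of the unfolded protein response.

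Of the 40 members, 13 were called negative and 2 positive, and 25 were not called. The background in the authors' deposited table was 20.2% of tested genes called, 11.1% negative and 9.05% positive, against 32.5% and 5% of the members. Called shares rise with expression, and the members were all well expressed, with means from 493 for Gmppb to 25936 for Rpn2. Among the 7780 tested genes within that range of means, 26.5% were called, 14.2% negative and 12.2% positive. The median log2 fold change of the members was -0.09, beside 0.01 over all tested genes, and 30 of the 40 had a negative sign, 75% against 48.3% of all tested genes. In such bulk libraries fewer cells of a type and less RNA per cell cannot be told apart. Changes were small. The called members lay between 0.16 and 0.58 in absolute log2 fold change, and none of the 40 reached 1.

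Counts by step are read beside the 20.2% of all tested genes called and the 26.5% within the members' range of means. Transfer had 6 of 9 members called (66.7%), all negative, with a median of -0.22. Trimming and maturation had 4 of 9 (44.4%), all negative, with a median of -0.04. Lipid-linked oligosaccharide assembly had 4 of 16 (25%), of which 3 were negative and 1 positive, with a median of -0.07. Sugar nucleotide supply had 1 of 6 (16.7%), positive, with a median of -0.09. The shares of assembly and supply lie near the background. That background is not matched to each step, and the steps differ in expression. Median means were 7481 for transfer, 3697 for trimming and maturation, 1083 for assembly and 910 for supply. The median was 1777 for the tested genes within the members' range. Where the mean exceeded 1000, 28.4% of tested genes were called. The part of expression level in the step shares was not tested. Whether the steps differ from each other was not tested.

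**Figure D1:**
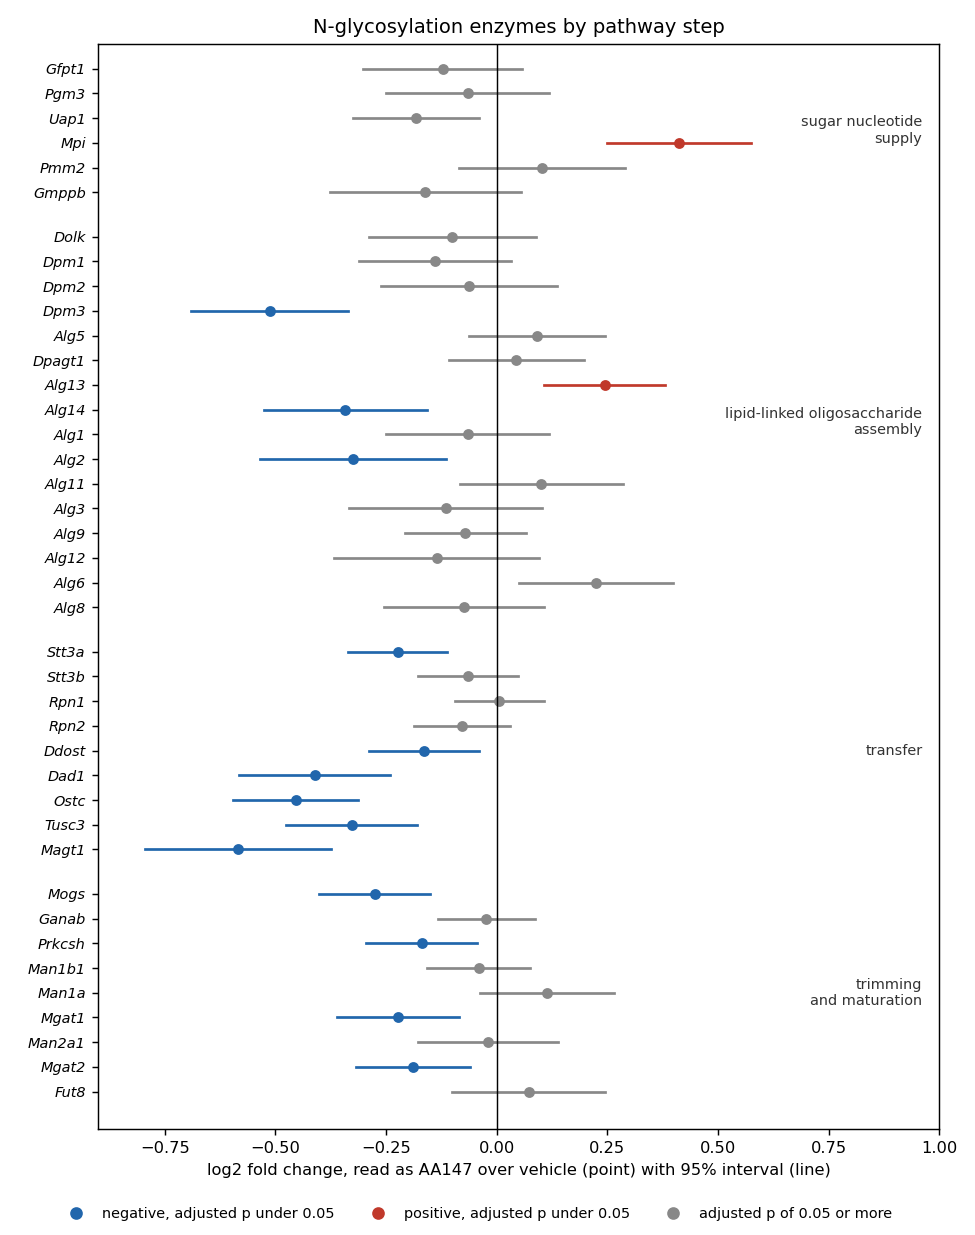
Log2 fold change of each of the 40 members (points), with its 95% interval (lines), in order of pathway step, blue for called negative, red for called positive and grey for not called. The 13 blue points lie between -0.16 and -0.58, and 6 of them are among the 9 genes of the transfer step.

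**Figure D2:**
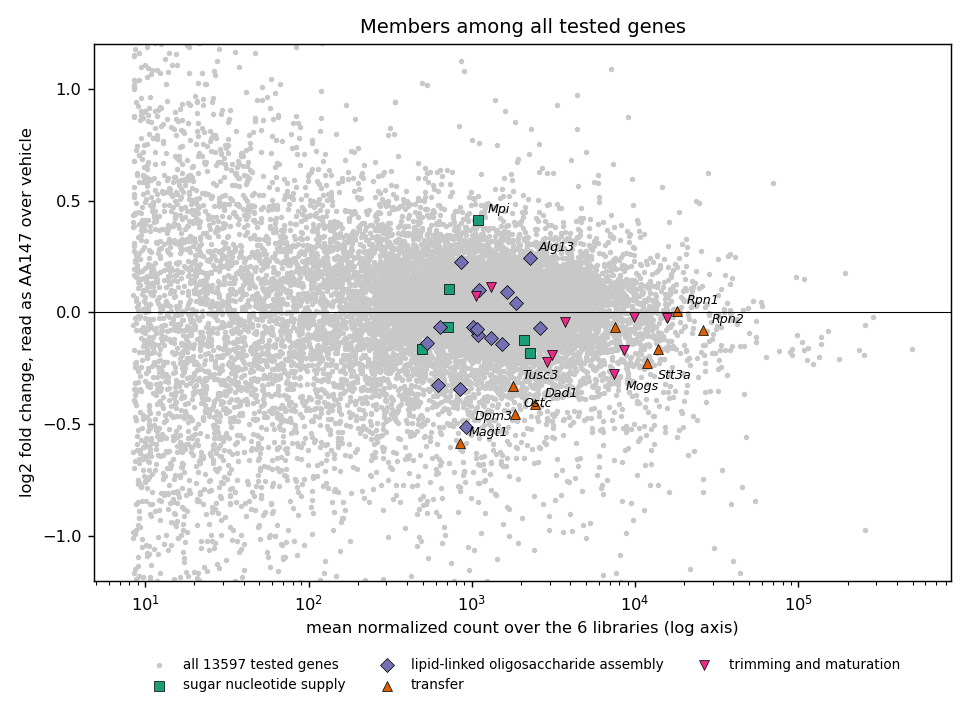
Log2 fold change against the mean normalized count over the 6 libraries (log axis) for the 13597 tested genes (grey) and the members (coloured by step). The vertical axis ends at 1.2 in each direction, which leaves out 271 tested genes and no member. The members sit in the well-expressed part of the cloud, and those lowest on the axis, Magt1 and Dpm3, have means under 1000.

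The oligosaccharyltransferase exists in 2 forms, which share several subunits and differ in the catalytic one. The STT3A form works at the protein-conducting channel during translation, and the STT3B form glycosylates sites that were skipped. Of the catalytic subunits, Stt3a was called, with a mean of 11762 and a log2 fold change of -0.22 (SE 0.057, adjusted p 0.00110) per the authors' deposited table. This corresponds to a level 14.4% lower, with a 95% interval from 20.8% to 7.42% lower. Stt3b, with a mean of 7481, stood at -0.07 (SE 0.058, adjusted p 0.488) per the authors' deposited table. Its interval ran from -0.18 to 0.05 and overlapped that of Stt3a, which ran from -0.34 to -0.11. The difference between the catalytic subunits was not tested.

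The accessory members of either form, Magt1, Tusc3 and Ostc, were all called negative. Magt1, an oxidoreductase subunit of the STT3B form that helps it reach cysteine-rich sites, had the lowest value of all 40 members in the authors' deposited table, -0.58 (SE 0.11, adjusted p 1.39e-06). Its mean was 841 normalized counts in the authors' deposited table. Taken at face value with groups of equal size, its fold change implies averages of 1009 with vehicle and 673 with AA147, a level 33.3% lower. Tusc3, the alternative oxidoreductase subunit of the same form, stood at -0.33 (SE 0.075, adjusted p 0.000204) with a mean of 1790.4 in the authors' deposited table. Both genes that can fill this position were called in the same direction, while the catalytic subunit they accompany was not called. Their differences from Stt3b were not tested. Ostc, which ties the STT3A form to the translocation channel, stood at -0.45 (SE 0.072, adjusted p 1.03e-08) per the authors' deposited table. Its mean of 1833 implies averages of 2119 with vehicle and 1546 with AA147.

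Among the 4 shared subunits, the ribophorins Rpn1 and Rpn2 were not called and the small subunit Dad1 was lower. Rpn1, with a mean of 18164, stood at 0.01 (SE 0.051, adjusted p 0.959) per the authors' deposited table, and its interval excluded a decrease of more than 6.35%. Rpn2, whose mean of 25936 was the highest of the members, stood at -0.08 (SE 0.055, adjusted p 0.354) per the authors' deposited table. Dad1, a small membrane subunit whose loss is known to destabilise the complex, stood at -0.41 (SE 0.087, adjusted p 4.33e-05) with a mean of 2442 in the authors' deposited table. Ddost, a conserved membrane subunit, was the most marginal call of the group at -0.16 (SE 0.064, adjusted p 0.0485) per the authors' deposited table. That call was lost when the p-values were adjusted over every gene with a p, and when a trend on transcript length, GC content and mean was subtracted, which left -0.11. In GENCODE, canonical exons of Ddost share 1514 bases with Pink1 on the opposite strand, and libraries without strand cannot separate them. Pink1 itself stood at 0.06 (SE 0.087, adjusted p 0.708) per the authors' deposited table.

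The 3 other subunits of the complex were taken from the list of other pathway genes. Tmem258, a small shared subunit, was called at -0.42 (SE 0.099, adjusted p 0.000358) per the authors' deposited table. Krtcap2, a partner of Ostc in the STT3A form, stood at -0.18 (adjusted p 0.0993), and Ost4, the smallest shared subunit, at -0.17 (adjusted p 0.253) per the authors' deposited table, and neither was called. Per kilobase of the canonical GENCODE transcript, the mean normalized count of the 9 members ran from 185 for Magt1 to 8747 for Rpn2, with 2005 for Stt3a and 1545 for Stt3b. These levels depend on the isoform, since other transcripts of each gene were not used.

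**Figure D3:**
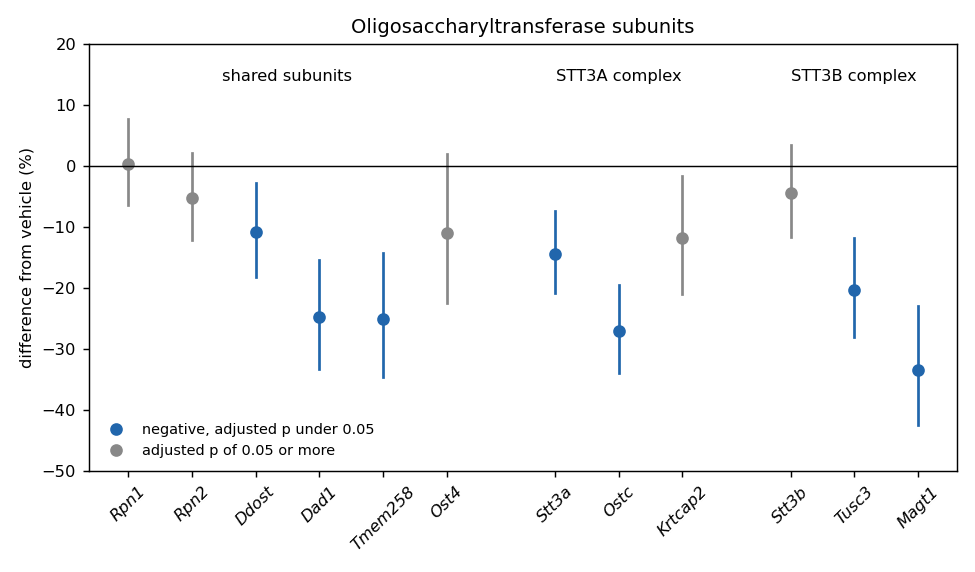
Difference of AA147 from vehicle in percent (points) with its 95% interval (lines) for 12 oligosaccharyltransferase subunits, grouped as shared, STT3A-form and STT3B-form subunits, blue for called negative and grey for not called. Magt1 and Ostc are lowest, at 33.3% and 27.0% lower, and Rpn1 lies at 0.4% higher.

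In sugar nucleotide supply, the branch towards GDP-mannose held the largest positive value of all members. Mpi, which converts fructose-6-phosphate to mannose-6-phosphate at the entry of that branch, had a mean of 1096 and a log2 fold change of 0.41 (SE 0.083, adjusted p 1.42e-05) per the authors' deposited table. This is a level 33.0% higher, with a 95% interval from 18.8% to 48.8%, or averages of 941 with vehicle and 1252 with AA147. The next members of the branch did not pass the test, but Pmm1, a second phosphomannomutase that is no member, was called positive at 0.30 (SE 0.066, adjusted p 7.78e-05), with a mean of 5219 in the authors' deposited table. Pmm2, the phosphomannomutase, stood at 0.10 (SE 0.096, adjusted p 0.516), and Gmppb, the catalytic GDP-mannose pyrophosphorylase, at -0.16 (SE 0.11, adjusted p 0.336) per the authors' deposited table. Gmppa, a relative of Gmppb that is likewise no member, was not called at -0.21 (SE 0.082, adjusted p 0.0529) per the authors' deposited table. Gmppb shares 1142 exon bases in GENCODE with Rnf123 on the opposite strand, a gene called at -0.28 (adjusted p 0.00279) per the authors' deposited table, so its own value is uncertain.

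None of the 3 enzymes of the UDP-GlcNAc branch was called, although all had negative signs. Gfpt1, the rate-limiting enzyme of the hexosamine pathway and a known XBP1s target, stood at -0.12 (SE 0.092, adjusted p 0.396) per the authors' deposited table. Pgm3, the mutase that follows, stood at -0.07 (SE 0.094, adjusted p 0.701) per the authors' deposited table. Uap1, which makes UDP-GlcNAc, came nearest to a call at -0.18 (SE 0.073, adjusted p 0.0594) per the authors' deposited table. It passed the threshold when the fold changes were centred on the median of the more abundant genes (a mean of 100 or more), 0.01, and when the trend on length, GC content and mean was subtracted.

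Among the enzymes that make the lipid-linked donors, 1 of 5 was called. Dpm3, the membrane anchor of dolichol-phosphate mannose synthase, had a mean of 920.4 and a log2 fold change of -0.51 (SE 0.091, adjusted p 4.63e-07) per the authors' deposited table. It was the second lowest value of the 40 members, and implies averages of 1082 with vehicle and 758 with AA147. Its partners were not called. Dpm1, the catalytic subunit, stood at -0.14 (SE 0.088, adjusted p 0.282), and Dpm2, a regulatory subunit, at -0.06 (SE 0.10, adjusted p 0.740) per the authors' deposited table. The canonical transcript of Dpm3 is the shortest of the 40, at 404 bases, and its value after the trend on length, GC content and mean was subtracted was -0.39, still called. Dolk, the dolichol kinase, stood at -0.10 (adjusted p 0.535), and Alg5, the dolichol-phosphate glucose synthase, at 0.09 (adjusted p 0.478) per the authors' deposited table.

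On the cytosolic face, 3 of 6 enzymes were called, and the subunits of 1 enzyme had opposite signs. Dpagt1, which starts the chain and is the target of tunicamycin, stood at 0.04 (SE 0.078, adjusted p 0.763) per the authors' deposited table. The second sugar is added by a dimer of Alg13, the catalytic subunit, and Alg14, its membrane anchor. Alg13 was called at 0.24 (SE 0.070, adjusted p 0.00435), with a mean of 2273 in the authors' deposited table. Alg14 was called at -0.34 (SE 0.094, adjusted p 0.00269), with a mean of 844 in the authors' deposited table. Their 95% intervals, from 0.11 to 0.38 and from -0.53 to -0.16, did not overlap. Part of the Alg13 transcript, 201 bases, is 95% identical to Glt28d2, whose mean of 6.23 in the authors' deposited table was far below that of Alg13. Alg2, which adds mannoses after the first one, was called at -0.32 (SE 0.11, adjusted p 0.0166) per the authors' deposited table. The other mannosyltransferases of this face are Alg1, which adds the first mannose, and Alg11, which adds the last ones here. Alg1 at -0.07 (adjusted p 0.701) and Alg11 at 0.10 (adjusted p 0.518) per the authors' deposited table, were not called.

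On the lumenal face, 0 of 5 enzymes were called by DESeq2's adjusted p, and 1 had an unadjusted p under 0.05. That gene was Alg6, which adds the first glucose, at 0.23 (SE 0.089, adjusted p 0.0545) per the authors' deposited table. The mannosyltransferases Alg3, Alg9 and Alg12 stood at -0.12, -0.07 and -0.14, with adjusted p of 0.535, 0.542 and 0.483 in the authors' deposited table. Alg8, the second glucosyltransferase, stood at -0.07 (adjusted p 0.646) per the authors' deposited table. On this face 1 gene had a positive sign, Alg6, and 4 had negative signs.

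Trimming in the ER had 2 of 4 members called. Mogs, glucosidase I, which removes the outermost glucose right after transfer, had a mean of 7469 and a log2 fold change of -0.28 (SE 0.064, adjusted p 0.000228) per the authors' deposited table. That is a level 17.4% lower, with a 95% interval from 24.2% to 9.91% lower. Its canonical exons share 138 bases in GENCODE with Wbp1 on the opposite strand, which stood at -0.07 (adjusted p 0.627) per the authors' deposited table. The subunits of glucosidase II, which removes the inner glucoses, gave different calls. Ganab, the catalytic subunit, with a mean of 15594, stood at -0.02 (SE 0.056, adjusted p 0.833) per the authors' deposited table. Prkcsh, the subunit that retains it in the ER, was called at -0.17 (SE 0.064, adjusted p 0.0406) per the authors' deposited table. Their 95% intervals, from -0.13 to 0.09 and from -0.29 to -0.04, overlapped, and the difference between the subunits was not tested. The call of Prkcsh was lost when the trend on length, GC content and mean was subtracted, which left -0.11. Man1b1, the ER mannosidase, stood at -0.04 (SE 0.060, adjusted p 0.709) per the authors' deposited table.

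In the Golgi, the called members were the enzymes that start the branches. Mgat1, which adds the first branch and is required for every hybrid and complex chain, was called at -0.22 (SE 0.070, adjusted p 0.0113) with a mean of 2902 in the authors' deposited table. Mgat2, which adds the second, was called at -0.19 (SE 0.066, adjusted p 0.0247) with a mean of 3081 in the authors' deposited table. Canonical exons of Mgat2 share 304 bases in GENCODE with Rpl36al on the opposite strand, which stood at -0.13 (adjusted p 0.183) per the authors' deposited table. The mannosidases Man1a and Man2a1 stood at 0.11 (adjusted p 0.334) and -0.02 (adjusted p 0.912) per the authors' deposited table. Fut8, which adds the core fucose, stood at 0.07 (adjusted p 0.637) per the authors' deposited table. These 3 were not called.

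The 25 members that were not called were measured with fair precision. All 25 of their 95% intervals lay within 0.5 of no change on the log2 scale, and 18 lay within 0.3. The lowest bound was -0.38, for Gmppb, and the highest 0.40, for Alg6. In the authors' deposited table the SE of the members was between 0.87 and 1.32 times the SE typical of genes at that level (the median of the 200 nearest by mean). Across the 40 members the Spearman correlation of the fold change with transcript length was 0.11 and with GC content -0.06, beside 0.12 and -0.19 across 10098 genes with a mean of at least 100. These describe genes of the same libraries and are not tests. Of the members not discussed for this above, Pgm3, Pmm2, Alg1 and Rpn2 also share exon bases on the opposite strand with a gene of the authors' deposited table. Several members overlap GENCODE genes without a line there. Among them, Dpm1 shares 895 bases with Gm20716 on the same strand. On the opposite strand, Dad1 shares 457 with Gm62810 and Tusc3 537 with Gm56865.

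Promoters were searched for response motifs of the regulators that AA147 is known to activate, since ER stress elements are bound by ATF6 and XBP1s and the antioxidant response element by NRF2. RefSeq windows of build GRCm38.p6, 250 bases before each start, were found for 34 of the 40 members, in 40 windows. Gmppb, Dpagt1, Alg2, Alg11, Ostc and Tusc3 had none. On both strands, the ER stress response element, CCAAT and CCACG with 9 bases between them, occurred in 1 member window, that of Alg12, beside 0.113% of all 32851 windows. Its shorter form, ATTGG and CCACG with 1 base between them, occurred in 0 member windows and 0.0304% of all. The core TGACGTG of the unfolded protein response element occurred in 2 member windows, of Mogs and Dpm2, which is 5% beside 1.65% of all. The 3 windows that hold such letters are shown as they read towards the gene's start, with the fixed bases of the motif in capitals.
Alg12, chr15:88819319-88819568, minus strand: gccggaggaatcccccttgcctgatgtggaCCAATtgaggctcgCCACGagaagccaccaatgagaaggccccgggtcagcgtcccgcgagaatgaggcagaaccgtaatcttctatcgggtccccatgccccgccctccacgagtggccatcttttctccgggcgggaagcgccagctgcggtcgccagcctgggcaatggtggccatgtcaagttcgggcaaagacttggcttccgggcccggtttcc
Mogs, chr6:83115256-83115505, plus strand: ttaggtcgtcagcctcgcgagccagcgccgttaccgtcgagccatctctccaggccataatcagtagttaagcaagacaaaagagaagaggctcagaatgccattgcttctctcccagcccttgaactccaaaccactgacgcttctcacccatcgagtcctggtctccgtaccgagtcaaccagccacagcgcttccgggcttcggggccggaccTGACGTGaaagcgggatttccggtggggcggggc
Dpm2, chr2:32570608-32570857, plus strand: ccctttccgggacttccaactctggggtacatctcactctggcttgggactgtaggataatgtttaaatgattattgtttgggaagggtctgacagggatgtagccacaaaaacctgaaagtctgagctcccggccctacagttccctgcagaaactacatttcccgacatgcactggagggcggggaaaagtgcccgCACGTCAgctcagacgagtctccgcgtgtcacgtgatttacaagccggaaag
In the Alg12 window the motif begins 220 bases before the start, in the Mogs window 34 and in the Dpm2 window, on the other strand, 52. These genes gave values of -0.14, -0.28 and -0.06 in the authors' deposited table, and only Mogs was called.

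The region upstream of Alg12 is shared. Creld2, an ER stress-inducible gene that encodes an ER protein, is transcribed away from Alg12, and the 250-base windows of the pair share 173 bases. The same element lies in the Creld2 window on the opposite strand, where it begins 126 bases before that start. Creld2 was called at -0.37 (SE 0.063, adjusted p 1.40e-07) with a mean of 2913 in the authors' deposited table, and Alg12, with a mean of 529, was not called at -0.14 (SE 0.12). The interval of Alg12, from -0.37 to 0.10, overlapped that of Creld2, from -0.49 to -0.25.

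The antioxidant response core TGACNNNGC, which can overlap TGACGTG by its first bases but did so in no member window, occurred in 6 member windows, 15% beside 10.2% of all. The genes were Alg12, Alg6, Man1a, Rpn1, Rpn2 and Stt3b, and the matched letters included TGACCGGGC 39 bases before the start of Rpn1 and TGACAGCGC 170 bases before that of Rpn2. None of these 6 genes was called. The cyclic AMP response element TGACGTCA occurred in 0 member windows and 1.55% of all. A match describes letters only and is no evidence of binding.

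The rest of the pathway was taken from a list of other genes, of which 64 were in the authors' deposited table and 63 were tested. Of the 64, 25 were called, 10 positive and 15 negative, with a median log2 fold change of -0.05. The share called was 39.7%, beside 20.2% of all tested genes (11.1% negative and 9.05% positive). Among tested genes within the members' range of means it was 26.5%. The means of these other genes ran wider, from 7.51 to 37956, and no share was computed for that range. Of the calls, 15 of 25 were negative here and 13 of 15 among the members, a difference that was not tested.

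In sugar supply, 7 of 15 other genes were called, 4 positive and 3 negative. Amdhd2, a deacetylase that takes GlcNAc-6-phosphate out of the hexosamine pathway, was highest at 0.38 (SE 0.100, adjusted p 0.00146) per the authors' deposited table. Gmds, which makes the precursor of GDP-fucose, stood at -0.36 (SE 0.075, adjusted p 3.74e-05) per the authors' deposited table. Of 6 nucleotide sugar carriers, 1 was called, the UDP-galactose carrier Slc35a2 at -0.33 (SE 0.089, adjusted p 0.00195) per the authors' deposited table. In dolichol synthesis and assembly, 0 of 7 were called by DESeq2's adjusted p, and 2 had an unadjusted p under 0.05.

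In folding control and mannose trimming, 6 of 13 were called, 2 positive and 4 negative. The lectin chaperones differed in their calls. Calr, calreticulin, was called at -0.17 (SE 0.062, adjusted p 0.0370), and Canx, calnexin, stood at 0.01 (SE 0.056, adjusted p 0.914) per the authors' deposited table. Uggt1, the folding sensor that returns a glucose to misfolded glycoproteins, stood at -0.07 (SE 0.071, adjusted p 0.572) per the authors' deposited table. The positive calls were Uggt2, its paralogue, at 0.29 (adjusted p 0.00764), and Pdia3, a disulfide isomerase that works with both lectin chaperones, at 0.26 (adjusted p 0.000185) per the authors' deposited table.

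Golgi branching and capping had 6 of 14 called, 2 positive and 4 negative. Man1c1 and Man2a2, relatives of the members Man1a and Man2a1, were called at -0.50 (SE 0.11, adjusted p 0.000171) and -0.45 (SE 0.091, adjusted p 1.91e-05) per the authors' deposited table. Man1a2, another relative of Man1a, was not called at -0.08 (SE 0.081, adjusted p 0.553) per the authors' deposited table. The differences between these relatives were not tested. St3gal4, a sialyltransferase, was called at -0.36 (SE 0.072, adjusted p 7.81e-06) per the authors' deposited table. Manea, an endomannosidase that bypasses the glucosidases, was called at 0.36 (SE 0.13, adjusted p 0.0388) per the authors' deposited table. Mgat3, at -0.84, had an SE of 0.41 and a mean of 43.3 in the authors' deposited table, too imprecise for a call (adjusted p 0.141).

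The enzymes of glycan removal in the cytosol had 2 of 3 called, both negative, and those of the lysosomal mannose-6-phosphate tag 2 of 3, both positive. Man2c1, the cytosolic mannosidase, was the lowest called gene of the list at -0.53 (SE 0.095, adjusted p 4.88e-07), and Ngly1, the N-glycanase, stood at -0.28 (SE 0.10, adjusted p 0.0342) per the authors' deposited table. Gnptab, which forms the tag, stood at 0.27 (SE 0.069, adjusted p 0.000788), and Nagpa, which uncovers it, at 0.31 (SE 0.092, adjusted p 0.00707) per the authors' deposited table. The third gene of each set had the same sign and was not called, Engase at -0.32 (adjusted p 0.179) and Gnptg at 0.26 (adjusted p 0.0784) per the authors' deposited table.

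**Figure D4:**
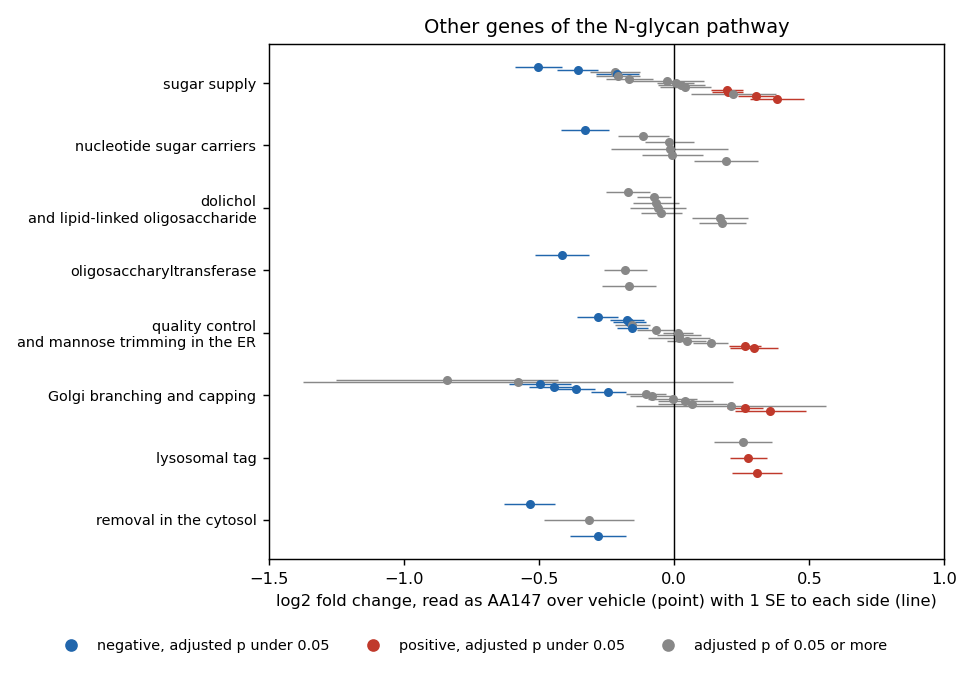
Log2 fold change (points) with 1 SE to each side (lines) of the 64 other genes of the N-glycan pathway, by role, blue for called negative, red for called positive and grey for not called. Calls lie on both sides of 0, from -0.53 for Man2c1 to 0.38 for Amdhd2, and the 3 genes of the lysosomal tag all lie right of 0.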

How the data were processed

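Total RNA of HT22 cells was sequenced as non-stranded mRNA, per the labels' protocols. The submitters' processing notes name DESeq2, without a version, and build mm9; the aligner, read counter and annotation are not given in the sources used here. Per the file headers, the authors deposited 1 line per gene, with the normalized count averaged over the 6 libraries (a signal), a log2 fold change and its standard error, both on the log2 scale, a score (the Wald statistic) and the raw and adjusted p-value. The score equalled the fold change over its standard error within 3.06e-07. The adjusted p-values matched a Benjamini-Hochberg adjustment over 13597 genes within the rounding of the p-values. The 2875 genes without one, with means of at most 8.41, stayed without a call. The depth of single libraries is unknown, and the means summed to 30768012.

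The members and gene lists were chosen with earlier results of these data known. From the table were computed counts of calls, medians, normal 95% intervals, percent differences and implied group averages. Named were all members, the 10 called other pathway genes with the largest absolute fold change, Uggt1, Canx and Calr, up to 3 called genes of other glycan pathways, and the markers with the highest and lowest mean. Other genes (Pmm1, Uggt2, Pdia3, markers with calls, Krtcap2, Ost4, Mgat3, Ngly1, Engase, the lysosomal tag genes, Creld2, the NRF2 targets, the ER stress genes and exon neighbours) were chosen after their values were seen or to read another result. Man1a2 and Gmppa were likewise chosen after their values were seen. Older symbols served for some genes, among them Gfus, Fcsk and Oga. Some genes that these rules name are not reported here. Transcript length, GC content and exon overlap came from canonical GENCODE M39 transcripts on GRCm39, with a length for 40 of 40 members and 85.9% of all genes. Similar transcripts were sought with BLAST 2.17.0 (at least 95% identity over 100 bases). The calling code was tested on simulated data. The software was pandas 2.3.3, statsmodels 0.14.6 and SciPy 1.17.1 under Python 3.11.15.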

Additional observations from a re-analysis of the deposited data

How the results depend on the processing

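No paired analysis was possible because the deposited table gives each gene 1 line over all libraries. Other normalizations, count filters, a replicate block and leaving out each replicate were not run on that account. The subtraction of a fitted trend (length, GC content, mean), and every alternative for the other pathway genes, was chosen after seeing the data. Of the 40 members, 15 were called as deposited, 14 with the adjustment over every gene with a p, 16 after centring on genes with a mean of at least 100, 15 after centring on the 12 reference genes (2 of them called, median 0.0023) and 14 after subtraction of the trend. Over all genes the same settings, in that order, called 2741, 2641, 2708, 2740 and 2347. Stricter rules left fewer by construction. An adjusted p under 0.01 left 10, of which 8 were negative. It left 1818 of the 13597 tested genes, 41.4% of them positive. A Bonferroni adjustment left 5 members (1 positive, 4 negative), 3 transfer members, all negative, and 5 other pathway genes (0 positive, 5 negative). Of the 13597 tested genes it left 774, 32.3% of them positive, so most calls under this rule were negative in general. A limit of 0.5 on the absolute log2 fold change left 2 members (0 positive, 2 negative), 1 transfer member, negative, and 2 other pathway genes (0 positive, 2 negative). That limit left 796 of the 13597 tested genes, 33.9% of them positive. The step medians moved by less than the median SE of their members, a wide limit since it is that of single genes, under the alternatives run. In sugar nucleotide supply the value went from -0.09 for the median to -0.0027 for the mean. No called member changed sign under centring or subtraction of the trend, which moved values by at most 0.12. Calls changed for Uap1, gained under 2 of these settings, and for Ddost and Prkcsh, lost under subtraction of the trend. Low counts limited Mgat3, St6gal1 and St3gal6 among the other genes.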

Other observations

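Other glycan pathways that share sugar donors with N-glycosylation had a called share near the background. Of 34 genes for glycosylphosphatidylinositol (GPI) anchors, O-mannose, C-mannose and O-GlcNAc in the authors' deposited table, 7 were called, 2 positive and 5 negative, with a median log2 fold change of 0.05. That is 20.6% of them, beside 20.2% of all tested genes. In the GPI anchor list, 4 of 19 were called, all negative, and 2 of these belong to the rule for named genes. Pigp, a subunit of the enzyme that starts the anchor, stood at -0.52 (SE 0.16, adjusted p 0.00657), and Pigk, the catalytic subunit of the transamidase that attaches it, at -0.39 (SE 0.068, adjusted p 2.39e-07) per the authors' deposited table. Among 10 O-mannose genes 1 was called in each direction. Of the enzymes that add and remove O-GlcNAc on cytosolic and nuclear proteins, which share UDP-GlcNAc with the N-glycan pathway, 0 of 2 were called by DESeq2's adjusted p, and 1 had an unadjusted p under 0.05.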
